A study of Mus musculus with 6 samples.

Results

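The genes described here encode the machinery that copies DNA and the enzymes that supply it with deoxynucleotides. They are 52 genes named by symbol, from the origin recognition complex to ribonucleotide reductase, and each symbol matched 1 row of the deposited table of 54532 genes. All 52 passed the filter on low counts, so none is missing from the counts below. The libraries come from CD4+ T cells purified from spleens of C57BL/6 mice and kept for 72 h under T helper 1 (Th1) conditions. The 3 idelalisib libraries are from cells cultured with idelalisib, a drug that blocks the PI3K delta kinase, and the 3 control libraries are from cells in the same conditions with no idelalisib named. Neither the dose nor a control solvent is given in the sources used here. Libraries are labelled biological replicates without saying if each is a different mouse. The p-values set the group difference against the spread between these libraries, which may be partly technical and may not cover differences between mice. Proliferation was among the responses the series set out to assess.

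A eukaryotic cell copies its genome once per division. In G1 the origin recognition complex, Cdc6 and Cdt1 load the ring-shaped MCM helicase onto origins, and in S phase Cdc45 and the GINS complex turn that ring into an active helicase. Polymerase alpha-primase then starts each strand, polymerases epsilon and delta extend it on the PCNA clamp, and ribonucleotide reductase, thymidylate synthase and the salvage kinases keep the deoxynucleotide pools filled. Resting T cells hold many of these transcripts low, and activation through the antigen receptor raises them as the cells enter the cycle, largely through E2F transcription factors.

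Total counts ranged from 13372318 to 16035945 in the idelalisib libraries and from 14879325 to 16770452 in the control libraries. Levels are CPM, read counts relative to library size with sizes adjusted by trimmed means of M-values (TMM), and the lowest count of any of the 52 genes in any library was 32. Idelalisib replicate 2 stood away from replicates 1 and 3 on the second principal component, which held 11.8% of the variance. The T cell genes Cd3d, Cd3e, Cd3g, Cd4, Trac and Lck summed to 1528 to 1797 CPM in the idelalisib libraries and 1764 to 1881 CPM in the control libraries, with 2 of 6 higher and 1 lower. Of 6 B cell markers 4 were higher and Ms4a1 was too low to test, none was at 0 in any library, and they summed to 11.9 to 15.7 CPM in the idelalisib libraries and 7.002 to 8.08 CPM in the control libraries. Of 6 myeloid markers only Cd68 was high enough to test and it was lower. The list summed to 9.63 to 14.0 CPM in the idelalisib libraries and 16.8 to 19.0 CPM in the control libraries. Most of that was Cd68, at a mean of 10.5 CPM with idelalisib and 16.7 CPM in control. Lyz2 went the other way, at 0.59, 0.85 and 0.42 CPM in the idelalisib libraries and 0.19, 0.13 and 0.07 CPM in the control libraries. Csf1r, Itgam, Adgre1 and Fcgr3 had overlapping groups, with Adgre1 at 0 in idelalisib replicate 1 and in control replicates 1 and 2. Of the CD8 genes Cd8a was higher and Cd8b1 was not called, with sums of 7.24 to 9.496 CPM in the idelalisib libraries and 4.43 to 7.86 CPM in the control libraries. Of 4 natural killer markers only Gzma could be tested, and it was not called. Their sum was 6.52 to 9.56 CPM in the idelalisib libraries and 5.94 to 7.86 CPM in the control libraries, and Ncr1 was at 0 in every library. The part that other cell types had in the differences below was not tested. In these bulk libraries, more cells in S phase and more transcript per cell cannot be told apart.

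Most of the replication genes were higher with idelalisib. Of the 52, 42 were called higher and 2 lower (adjusted p below 0.05 in edgeR's quasi-likelihood test of 14530 genes, n = 3 libraries per group), and 8 passed in neither direction. That is 80.8% called higher, where 22.2% of all genes tested were called higher and 22.4% lower. In 45 genes every idelalisib library lay above every control library, 86.5% of them against 27.5% of all genes tested. The opposite order held in 3, Orc3, Orc4 and Orc5, and in 27.2% of all genes tested. Their median log2 fold change was 0.63, with a range of -0.41 to 1.63, beside a median of 0.01 over all genes tested. The list was chosen with earlier results of these libraries known, so its share is no independent evidence of the direction. Of the 52 genes, 31 rose at least 1.5-fold, and 5 rose at least 2-fold, namely Rrm2, Cdc6, Mcm7, Clspn and Rfc5. Together the 52 genes took 0.527%, 0.533% and 0.531% of all counts in the idelalisib libraries and 0.313%, 0.313% and 0.307% in the control libraries. Scaled by library size alone, all genes tested had a median of 0.16 on the log2 scale and the 52 genes one of 0.78.

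**Figure D1:**
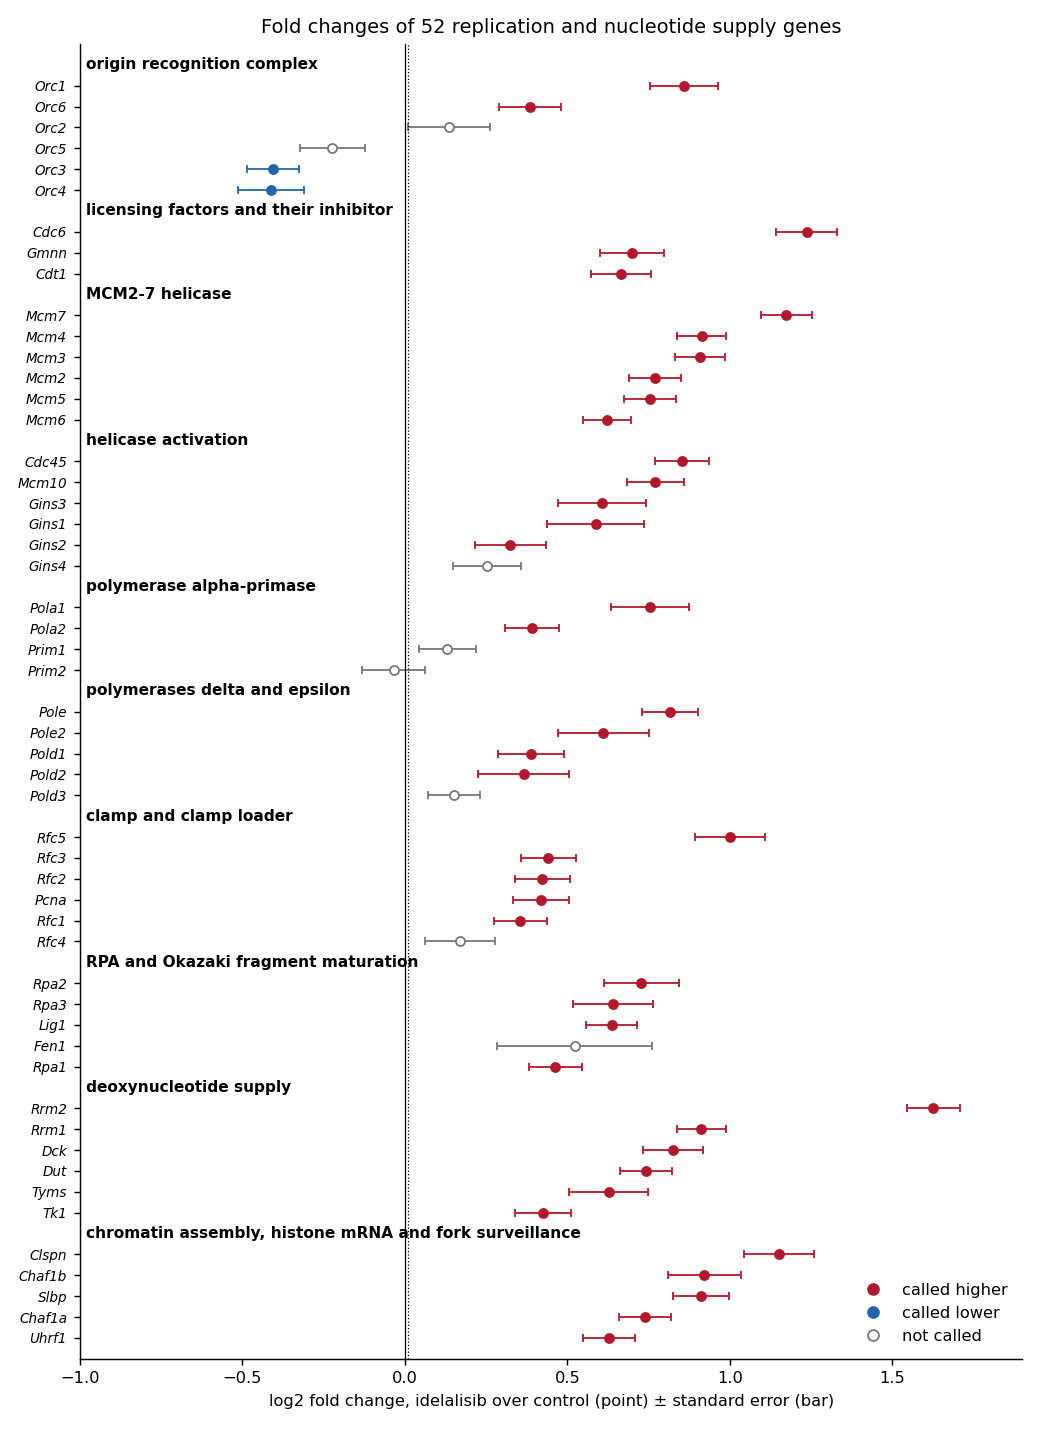
Log2 fold change of each of the 52 genes, idelalisib over control, with its standard error (edgeR, 3 libraries per group), grouped by role; filled red points were called higher, filled blue points lower, open points neither, and the dotted line is the median of all genes tested. Rrm2 lies farthest to the right at 1.63, and the origin recognition subunits Orc3 and Orc4 are the 2 genes called lower.

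E2F factors bind a short sequence that is frequent upstream of S phase genes, so the windows around the transcription starts were searched for it. RefSeq start windows (250 bases before to 50 bases from the start, build GRCm38.p6, the same coordinates as mm10) were found for 44 of the 52 genes, in 53 windows. The letters searched were TTTCCCGC, TTTGGCGC, TTTCGCGC and TTTGCCGC on both strands. They occurred in 17 of the 53 windows (32.1%), against 744 of 32851 windows of all genes (2.26%) and 505 of 12692 windows of genes tested here (3.98%). By gene, 15 of 36 genes called higher held a match, and 2 of 8 genes not called higher held one, Pold3 and Orc3. Of all genes tested that had a window, 477 of 9936 (4.8%) held a match. A difference between called and uncalled genes was not tested. The CCAAT box, letters CCAAT, was in 56.6% of the 53 windows against 37.4% of all windows, and the GC box, letters GGGCGG, in 73.6% against 35.7% of all windows and 61.3% of windows of genes tested. In 1 of the 53 windows an E2F match overlapped a match to the CCAAT or GC box. Rrm2, with the highest fold change, held no E2F match in its window but 1 CCAAT and 2 GC boxes. A match is a run of letters and not evidence of binding. The windows below are from 5 called genes with a match and a large rise, and from Orc3, which was called lower and holds a match too. They run 5′ to 3′ on the strand of the gene, and capitals mark the E2F letters or their reverse complement.
Cdc6: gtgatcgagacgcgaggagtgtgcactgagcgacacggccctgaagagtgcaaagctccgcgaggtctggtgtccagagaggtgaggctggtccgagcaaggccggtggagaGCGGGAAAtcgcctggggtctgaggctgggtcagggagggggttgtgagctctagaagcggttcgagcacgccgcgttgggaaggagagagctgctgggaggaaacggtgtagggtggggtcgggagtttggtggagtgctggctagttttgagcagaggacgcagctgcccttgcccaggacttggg
Mcm7: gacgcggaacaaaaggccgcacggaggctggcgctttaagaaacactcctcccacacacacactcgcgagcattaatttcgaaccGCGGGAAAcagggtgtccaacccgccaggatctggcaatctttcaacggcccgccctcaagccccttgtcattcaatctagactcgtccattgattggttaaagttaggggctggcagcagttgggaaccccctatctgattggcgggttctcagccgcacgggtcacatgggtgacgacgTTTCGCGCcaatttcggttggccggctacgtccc
Clspn: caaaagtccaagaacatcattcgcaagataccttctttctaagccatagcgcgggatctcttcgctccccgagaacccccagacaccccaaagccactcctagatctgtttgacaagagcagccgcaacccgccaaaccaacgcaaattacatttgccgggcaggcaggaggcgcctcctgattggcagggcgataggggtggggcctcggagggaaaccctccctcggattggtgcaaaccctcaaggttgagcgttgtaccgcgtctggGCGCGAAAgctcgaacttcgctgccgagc
Mcm3: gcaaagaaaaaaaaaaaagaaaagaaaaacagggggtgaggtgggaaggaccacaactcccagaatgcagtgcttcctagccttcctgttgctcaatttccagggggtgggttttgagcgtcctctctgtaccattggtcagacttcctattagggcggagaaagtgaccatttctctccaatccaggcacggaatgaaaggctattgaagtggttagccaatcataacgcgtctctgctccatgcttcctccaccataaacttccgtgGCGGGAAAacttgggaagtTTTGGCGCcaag
Orc1: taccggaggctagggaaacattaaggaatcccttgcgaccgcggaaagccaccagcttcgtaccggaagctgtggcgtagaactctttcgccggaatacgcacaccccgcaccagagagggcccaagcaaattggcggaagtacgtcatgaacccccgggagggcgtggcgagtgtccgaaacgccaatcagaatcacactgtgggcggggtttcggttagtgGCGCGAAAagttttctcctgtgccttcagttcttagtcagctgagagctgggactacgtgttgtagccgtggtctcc
Orc3: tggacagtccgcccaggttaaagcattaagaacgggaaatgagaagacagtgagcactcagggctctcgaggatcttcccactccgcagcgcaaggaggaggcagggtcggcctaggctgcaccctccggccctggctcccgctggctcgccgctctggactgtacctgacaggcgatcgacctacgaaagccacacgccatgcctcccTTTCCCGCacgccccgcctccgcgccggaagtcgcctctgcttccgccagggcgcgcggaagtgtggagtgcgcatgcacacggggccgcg
The Cdc6 window is chr11:98907901-98908200, plus strand, with the match starting at base -138 from the transcription start. Mcm7 has a pair of windows, and the one with matches lies at chr5:138171834-138172133, minus strand, with matches at -165 and 17. This window and that of Cdc6 lie wholly inside the annotated genes, past their 5′ ends at 138172422 and 98907801. The Clspn window is chr4:126556730-126557029, plus strand, with the match at 22, and that of Mcm3 is chr1:20820263-20820562, minus strand, with matches at 20 and 39. Orc1 has its window at chr4:108579204-108579503, plus strand, with the match at -27, and Orc3 at chr4:34614893-34615192, minus strand, with the match at -41.

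The origin recognition complex marks the sites where replication can begin, and its subunits did not move together. Orc1, the subunit that human cells degrade and rebuild in each cycle (ENSMUSG00000028587, mm10 chromosome 4, 108579423 to 108614833), was at 30.4, 30.7 and 30.2 CPM in the idelalisib libraries and 17.3, 16.6 and 16.4 CPM in the control libraries. The groups were far apart and the libraries within each differed little (log2 fold change 0.86 ± 0.10 SE, adjusted p = 2.13e-05, edgeR). Orc6, the subunit most loosely attached to the core, rose as well (log2 fold change 0.38 ± 0.10 SE, adjusted p = 0.00481, edgeR). Orc3 and Orc4, both core subunits, fell: Orc3 was at 87.2, 86.7 and 85.7 CPM in the idelalisib libraries and 116, 119 and 108 CPM in the control libraries (log2 fold change -0.40 ± 0.08 SE, adjusted p = 0.000976, edgeR). Orc4 was at 57.3, 64.4 and 49.2 CPM in the idelalisib libraries and 76.3, 79.5 and 71.6 CPM in the control libraries, again with no overlap (log2 fold change -0.41 ± 0.10 SE, adjusted p = 0.00454, edgeR). The fall of Orc4 just missed the threshold when libraries were scaled by their size alone (log2 fold change -0.26, adjusted p = 0.0533, edgeR), while that of Orc3 passed (-0.25, 0.0193). Orc2 and Orc5 passed in neither direction, at a log2 fold change of 0.14 for Orc2 and -0.22 for Orc5 (adjusted p = 0.405 and 0.0829, edgeR). Summed over the 6 subunits the complex stood at 292 ± 10.7 CPM with idelalisib and 316 ± 8.68 CPM in control (SD, n = 3 each), a ratio of 0.924 that becomes 1.03 with libraries scaled by size alone. In the annotation 29.8% of the exon bases of Orc2 overlap Nif3l1 on the other strand, and 10.8% of those of Orc1 overlap Gm12743. For Orc4 the share is 7.8% (Acvr2a or Mbd5) and for Orc6 6.9% (Vps35). Since the strand setting of the counting is not given, reads of such pairs may be mixed. The windows of Orc1 and Orc3 printed above both hold 1 E2F match, and these genes moved in opposite directions.

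All 3 licensing genes rose. Cdc6, the ATPase that joins the origin recognition complex to load the helicase (ENSMUSG00000017499, mm10 chromosome 11, 98907801 to 98923940), was at 47.6, 48.6 and 48.8 CPM in the idelalisib libraries and 20.4, 20.9 and 20.3 CPM in the control libraries. Replicates differed by little beside the gap between the groups, and the fold was 2.35 (log2 fold change 1.24 ± 0.09 SE, adjusted p = 2.83e-07, edgeR). Cdt1, which brings the MCM ring to the origin, was at 62.3, 64.3 and 75.4 CPM in the idelalisib libraries and 42.2, 42.4 and 42.8 CPM in the control libraries (log2 fold change 0.67 ± 0.09 SE, adjusted p = 7.21e-05, edgeR). Geminin, Gmnn, the protein that binds Cdt1 and blocks a second round of licensing, was at 50.03, 49.2 and 51.4 CPM in the idelalisib libraries and 29.6, 28.5 and 34.8 CPM in the control libraries (log2 fold change 0.70 ± 0.10 SE, adjusted p = 7.83e-05, edgeR). The loader Cdt1 and its inhibitor had log2 fold changes that differed by less than their standard errors. Their log2 ratio, Cdt1 over Gmnn, was 0.32, 0.39 and 0.55 in the idelalisib libraries and 0.51, 0.57 and 0.30 in the control libraries, and the groups overlapped (exact 2-sided permutation test, p = 0.8).

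The 6 subunits of the MCM2-7 ring, the core of the replicative helicase, all rose, with log2 fold changes of 0.62 (Mcm6) to 1.17 (Mcm7). Mcm7 (ENSMUSG00000029730, mm10 chromosome 5, 138164583 to 138172422) was at 183, 187 and 198 CPM in the idelalisib libraries and 81.3, 86.9 and 83.6 CPM in the control libraries. Every idelalisib library lay far above every control library (log2 fold change 1.17 ± 0.08 SE, adjusted p = 1.01e-07, edgeR). Mcm6 was at 318, 339.6 and 322 CPM in the idelalisib libraries and 209, 218 and 209 CPM in the control libraries (log2 fold change 0.62 ± 0.07 SE, adjusted p = 1.82e-05, edgeR). It had the smallest rise of the 6, and its groups did not overlap either. Mcm3 and Mcm4 had log2 fold changes of 0.91 and 0.91, and Mcm2 and Mcm5 of 0.77 and 0.75. The ring holds 1 copy of each subunit, which does not set the ratio of their transcripts. Levels per kilobase divide by all annotated exon bases, 6956 for Mcm2 and 3752 for Mcm3. These can exceed the length of the transcripts in the cells, so ranks between genes are uncertain. On that scale (CPM per kilobase, mean ± SD, n = 3) Mcm6 was at 70.0 ± 2.48 with idelalisib and 45.5 ± 1.13 in control, Mcm4 at 66.0 ± 2.25 with idelalisib and 35.1 ± 0.658 in control, Mcm3 at 65.0 ± 3.45 with idelalisib and 34.7 ± 0.459 in control and Mcm5 at 52 ± 1.80 with idelalisib and 30.8 ± 2.03 in control. Mcm7 was at 42.8 ± 1.77 with idelalisib and 19.0 ± 0.636 in control, and Mcm2 at 22.0 ± 1.23 with idelalisib and 12.9 ± 0.486 in control, the lowest of the 6 in both groups. The 6 subunits summed to 1357 ± 29.9 CPM with idelalisib and 765 ± 12.1 CPM in control, a ratio of 1.77. Of the 50-base words in Mcm7 transcripts 23.3% occur in other genes, and 8.7% of its exon bases overlap Ap4m1 or Cops6 on the other strand.

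Of the 6 genes of the set that help turn the loaded ring into a moving helicase, 5 rose and Gins4 did not pass the test. Other factors of this step are counted in a later list of fork and origin factors, which has calls in both directions. Cdc45, the helicase cofactor that completes the complex with GINS, was at 68.8, 70.0 and 73.7 CPM in the idelalisib libraries and 38.0, 40.7 and 39.0 CPM in the control libraries (log2 fold change 0.85 ± 0.08 SE, adjusted p = 3.46e-06, edgeR). Mcm10, which helps activate the helicase, was at 64.3 ± 2.24 CPM with idelalisib and 37.7 ± 2.42 CPM in control (log2 fold change 0.77). GINS has 4 subunits. Gins1 and Gins3 had log2 fold changes of 0.59 (SE 0.15) and 0.61 (SE 0.14), both called. Gins2 was at 25.9, 23.7 and 27.5 CPM in the idelalisib libraries and 20.96, 20.8 and 19.9 CPM in the control libraries (log2 fold change 0.33 ± 0.11 SE, adjusted p = 0.0266, edgeR). That call depended on several libraries: leaving out any control library, or idelalisib replicate 1 or 3, ended it, with an adjusted p of up to 0.0971 in edgeR, and DESeq2 gave 0.0566. In the annotation 67.3% of its exon bases overlap Gse1 on the other strand. Gins4 was at 28.2, 32.4 and 30.0 CPM in the idelalisib libraries and 24.7, 24.4 and 27.0 CPM in the control libraries, without overlap between the groups, but its change did not reach the threshold (log2 fold change 0.25 ± 0.11 SE, adjusted p = 0.0647, edgeR).

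Within polymerase alpha-primase, the enzyme that lays down the first RNA-DNA primer, the polymerase subunits rose and the primase subunits did not pass. Pola1, the catalytic subunit on chromosome X, was at 78.8, 75.1 and 54.8 CPM in the idelalisib libraries and 40.5, 42.5 and 40.7 CPM in the control libraries (log2 fold change 0.75 ± 0.12 SE, adjusted p = 0.000199, edgeR). Idelalisib replicate 3 was well below the other idelalisib libraries, although still above every control library. Pola2, the accessory B subunit, had a log2 fold change of 0.39 (SE 0.08). Prim1, the primase catalytic subunit, was at 55.1, 61.0 and 55.4 CPM in the idelalisib libraries and 49.0, 55.0 and 52.7 CPM in the control libraries (log2 fold change 0.13 ± 0.09 SE, adjusted p = 0.247, edgeR). Prim2, the large primase subunit, was at 37.8 ± 0.714 CPM with idelalisib and 38.7 ± 3.53 CPM in control, with overlapping groups (edgeR adjusted p = 0.796). Scaled by library size alone, Prim1 was called at a log2 fold change of 0.29, and Prim2 turned to 0.12 without a call. A difference in response between the subunits was not tested.

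Of the 5 subunits of the polymerases that extend the strands, 4 rose. Pole, the catalytic subunit of the leading-strand polymerase epsilon, was at 124, 117 and 109 CPM in the idelalisib libraries and 65.8, 70.2 and 63.0 CPM in the control libraries (log2 fold change 0.82 ± 0.09 SE, adjusted p = 5.78e-06, edgeR). Its partner Pole2 was at 20.2, 22.8 and 20.96 CPM in the idelalisib libraries and 12.7, 16.8 and 12.3 CPM in the control libraries and also rose (log2 fold change 0.61 ± 0.14 SE, adjusted p = 0.00299, edgeR). In polymerase delta, which extends Okazaki fragments, the catalytic subunit Pold1 was at 162, 137 and 183 CPM in the idelalisib libraries and 130.1, 116 and 122 CPM in the control libraries (log2 fold change 0.39 ± 0.10 SE, adjusted p = 0.0064, edgeR). Idelalisib replicate 2 was the lowest of its group in Pold1 and in Pold2. In Pold2, at 53.0, 40.1 and 64.1 CPM in the idelalisib libraries and 39.0, 43.6 and 39.6 CPM in the control libraries, that library fell within the control range. The call of Pold2 (log2 fold change 0.37 ± 0.14 SE, adjusted p = 0.048, edgeR) was lost without any 1 of the 3 control libraries or idelalisib replicate 1 or 3, with an adjusted p of up to 0.172. Without idelalisib replicate 3 its log2 fold change was 0.21 (adjusted p = 0.172, edgeR), against 0.37 with all libraries. Pold3 was at 102, 104 and 94.8 CPM in the idelalisib libraries and 91.7, 87.4 and 91.4 CPM in the control libraries and was not called (log2 fold change 0.15 ± 0.08 SE, adjusted p = 0.136, edgeR), although it passed without idelalisib replicate 3 (adjusted p = 0.0443) and with scaling by library size alone (0.00655). The log2 ratio of Pole to Pold1 was -0.38, -0.22 and -0.75 in the idelalisib libraries and -0.98, -0.72 and -0.95 in the control libraries. Idelalisib replicate 3 fell into the control range (exact 2-sided permutation test, p = 0.2).

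The sliding clamp Pcna (ENSMUSG00000027342, mm10 chromosome 2, 132249162 to 132253314) was at 243, 290.1 and 271 CPM in the idelalisib libraries and 204, 187 and 210.2 CPM in the control libraries, a 1.34-fold rise (log2 fold change 0.42 ± 0.09 SE, adjusted p = 0.00141, edgeR). Per kilobase it was the highest of the 52 genes, at 112 ± 9.82 with idelalisib and 83.6 ± 5.01 in control CPM per kilobase (SD, n = 3). That rank, too, depends on the annotated exon length. Of its 50-base words 19.1% occur in other genes, most often in its pseudogene Pcna-ps2. The clamp is opened and closed on DNA by replication factor C, and 4 of its 5 subunits rose. Rfc5 was at 50.9, 59.1 and 66.4 CPM in the idelalisib libraries and 30.1, 30.3 and 27.7 CPM in the control libraries, a 2.00-fold change (log2 fold change 1.00 ± 0.11 SE, adjusted p = 6.91e-06, edgeR). The large subunit Rfc1 and the small subunits Rfc2 and Rfc3 lay close together, with log2 fold changes of 0.36, 0.42 and 0.44. Rfc4 was at 28.9, 32.7 and 30.0 CPM in the idelalisib libraries and 26.8, 29.7 and 24.9 CPM in the control libraries, with overlap between the groups, and was not called (log2 fold change 0.17 ± 0.11 SE, adjusted p = 0.214, edgeR) except with scaling by library size alone (log2 fold change 0.33, adjusted p = 0.0226). Exons of Rfc5, Rfc4 and Rfc2 overlap Wsb2, Eif4a2 and Lat2 on the other strand over 10.7%, 12.7% and 15.1% of their bases.

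Replication protein A, the trimer that coats single-stranded DNA, rose in all 3 subunits. Rpa1 was at 158, 156 and 158 CPM in the idelalisib libraries and 106, 124 and 113 CPM in the control libraries (log2 fold change 0.46 ± 0.08 SE, adjusted p = 0.00044, edgeR), with the idelalisib libraries close together. Rpa2 was at 46.2, 52.3 and 55.5 CPM in the idelalisib libraries and 30.7, 26.7 and 35.7 CPM in the control libraries (log2 fold change 0.73 ± 0.12 SE, adjusted p = 0.000188, edgeR), and Rpa3 had a log2 fold change of 0.64 (SE 0.12). Lig1, the ligase that seals Okazaki fragments, was at 186, 178 and 196 CPM in the idelalisib libraries and 126, 118 and 116 CPM in the control libraries (log2 fold change 0.64 ± 0.08 SE, adjusted p = 2.45e-05, edgeR). Fen1, the nuclease that trims their flaps, was at only 4.34, 3.89 and 3.23 CPM in the idelalisib libraries and 2.82, 2.84 and 2.29 CPM in the control libraries, and its change was not called (log2 fold change 0.52 ± 0.24 SE, adjusted p = 0.0888, edgeR). Its groups did not overlap, but its counts were 32 to 66 per library. In the annotation 84.2% of the exon bases of Fen1 overlap Tmem258 or Gm10143 on the other strand, and 76.7% of its 50-base words occur in other genes, so its level here is uncertain.

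All 6 genes of deoxynucleotide supply rose, and their summed level was 1.91-fold higher, at 686 ± 20.99 CPM with idelalisib and 360.0 ± 5.52 CPM in control (SD, n = 3 each). Rrm2, the small radical-bearing subunit of ribonucleotide reductase whose level follows S phase (ENSMUSG00000020649, mm10 chromosome 12, 24708241 to 24714146), was at 151, 155 and 147 CPM in the idelalisib libraries and 50.7, 46.5 and 49.6 CPM in the control libraries. The groups were far apart, and its change was the largest of the 52 genes (log2 fold change 1.63 ± 0.08 SE, adjusted p = 9.07e-09, edgeR). Rrm1, the large catalytic subunit, was at 274, 283 and 263 CPM in the idelalisib libraries and 142, 149 and 144 CPM in the control libraries (log2 fold change 0.91 ± 0.08 SE, adjusted p = 6.50e-07, edgeR). The log2 ratio of Rrm2 to Rrm1 was -0.85, -0.87 and -0.84 in the idelalisib libraries and -1.49, -1.68 and -1.54 in the control libraries, higher in every idelalisib library, by 0.71 on average (exact 2-sided permutation test, p = 0.1, the smallest p that 3 against 3 allows). Thymidylate synthase, Tyms, which makes dTMP, was at 30.5, 39.4 and 29.6 CPM in the idelalisib libraries and 21.1, 21.3 and 22.0 CPM in the control libraries (log2 fold change 0.63 ± 0.12 SE, adjusted p = 0.000929, edgeR). Idelalisib replicate 2 was the highest in Tyms. Dut, the dUTPase that keeps uracil out of DNA, was at 92.1 ± 2.31 CPM with idelalisib and 55.1 ± 0.883 CPM in control (log2 fold change 0.74). In the salvage pathway, the deoxycytidine kinase Dck was at 62.4, 74.6 and 64.8 CPM in the idelalisib libraries and 37.9, 38.0 and 38.0 CPM in the control libraries (log2 fold change 0.82 ± 0.09 SE, adjusted p = 1.01e-05, edgeR) and the thymidine kinase Tk1 at 67.5, 67.7 and 71.4 CPM in the idelalisib libraries and 47.0, 53.4 and 53.5 CPM in the control libraries (log2 fold change 0.42 ± 0.09 SE, adjusted p = 0.00137, edgeR). The log2 ratio of Tk1 to Dck was 0.11, -0.14 and 0.14 in the idelalisib libraries and 0.31, 0.49 and 0.49 in the control libraries, lower in every idelalisib library (exact 2-sided permutation test, p = 0.1).

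The 5 genes that pair replication with chromatin and with fork surveillance all rose. Clspn encodes claspin, which links stalled forks to the checkpoint kinase Chk1 (ENSMUSG00000042489, mm10 chromosome 4, 126556935 to 126593903), and was at 81.1, 71.9 and 67.1 CPM in the idelalisib libraries and 37.3, 29.5 and 32.2 CPM in the control libraries (log2 fold change 1.15 ± 0.11 SE, adjusted p = 1.95e-06, edgeR). The lowest idelalisib library, replicate 3, was still far above the highest control library, replicate 1. The histone chaperone CAF-1 deposits histones H3 and H4 behind the fork. Its subunits Chaf1a and Chaf1b had log2 fold changes of 0.74 (SE 0.08) and 0.92 (SE 0.11), and 52.5% of the exon bases of Chaf1a overlap Ubxn6 on the other strand. Slbp, which binds the stem-loop of histone transcripts and allows their processing, was at 80.7, 89.4 and 79.7 CPM in the idelalisib libraries and 44.1, 42.8 and 46.0 CPM in the control libraries (log2 fold change 0.91 ± 0.09 SE, adjusted p = 2.33e-06, edgeR). Uhrf1, which reads hemimethylated DNA and recruits the maintenance methyltransferase, was at 277, 263 and 292 CPM in the idelalisib libraries and 188, 185 and 167 CPM in the control libraries (log2 fold change 0.63 ± 0.08 SE, adjusted p = 3.41e-05, edgeR).

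**Figure D2:**
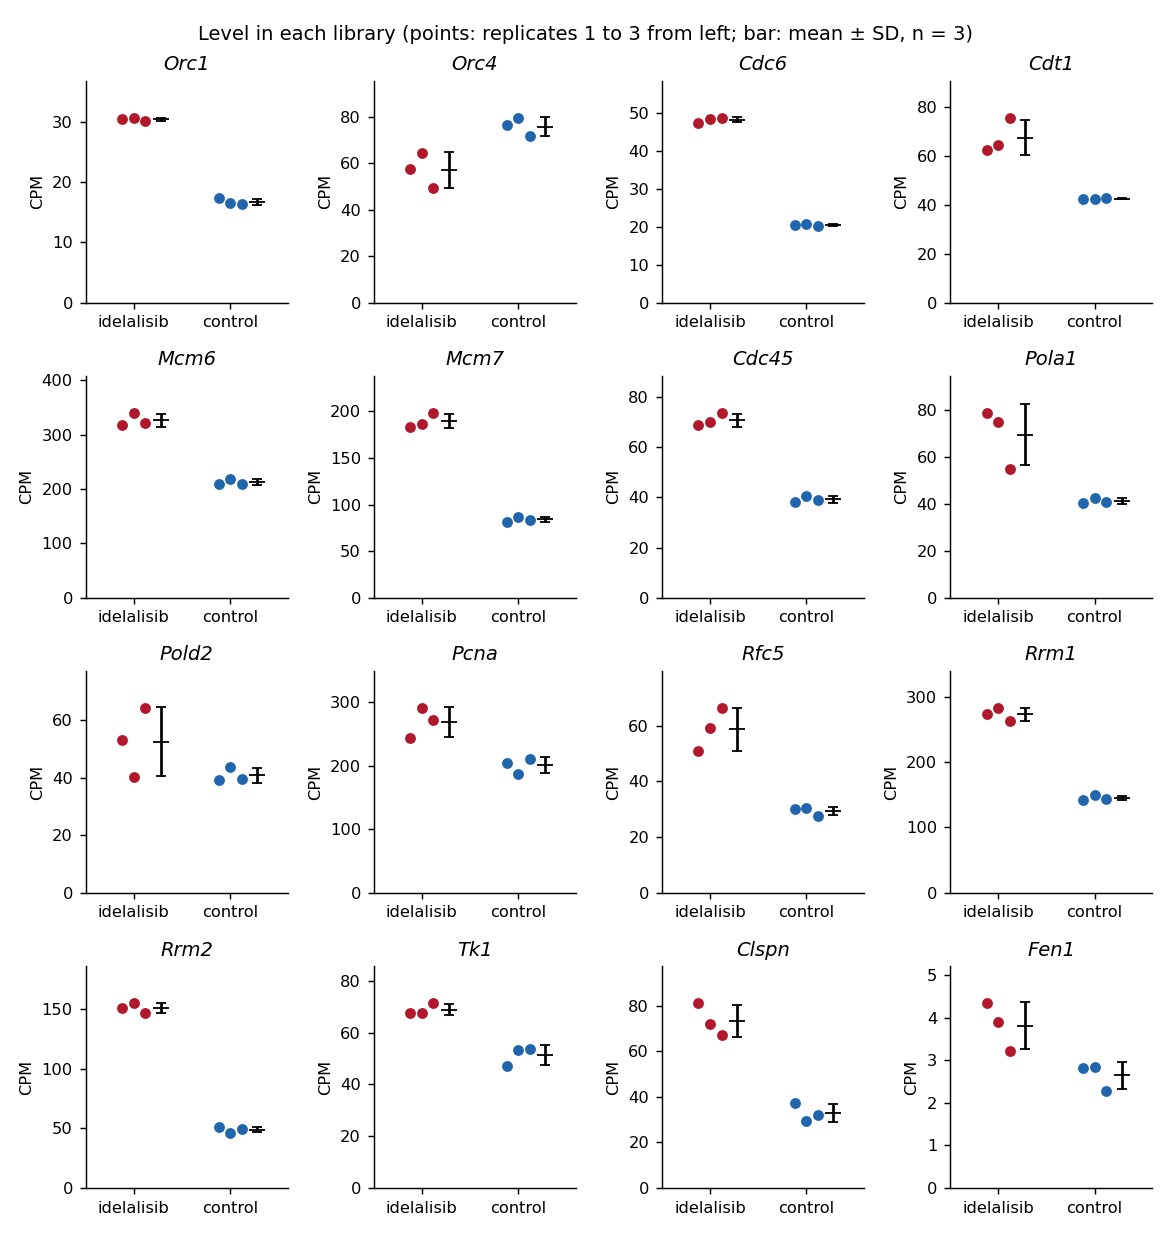
Level in CPM of 16 of the 52 genes in each library, idelalisib to the left of control in every panel, each axis starting at 0; points are replicates 1 to 3 and the bar is the mean ± SD. Cdc6, Rrm1 and Rrm2 show tight groups far apart, Pola1 and Pold2 show a wide idelalisib group, and Orc4 is lower with idelalisib.

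The idelalisib libraries resembled each other over this set. The median of the 52 genes' log2 CPM minus the control mean was 0.61, 0.65 and 0.63 in idelalisib replicates 1, 2 and 3, against -0.01, 0.02 and -0.01 in control replicates 1, 2 and 3. Idelalisib replicate 2, the library that stood apart over all genes, was the lowest of its group in 16 of the 52 genes and the highest in 19. Without it 42 of the 52 genes were called higher and 2 lower, the same numbers as with all libraries. Of 15069 genes tested without it, 3599 were called higher and 3581 lower. Per kilobase, control level and log2 fold change were weakly related across the 52 genes (Spearman rho -0.161), which share libraries and are not independent.

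**Figure D3:**
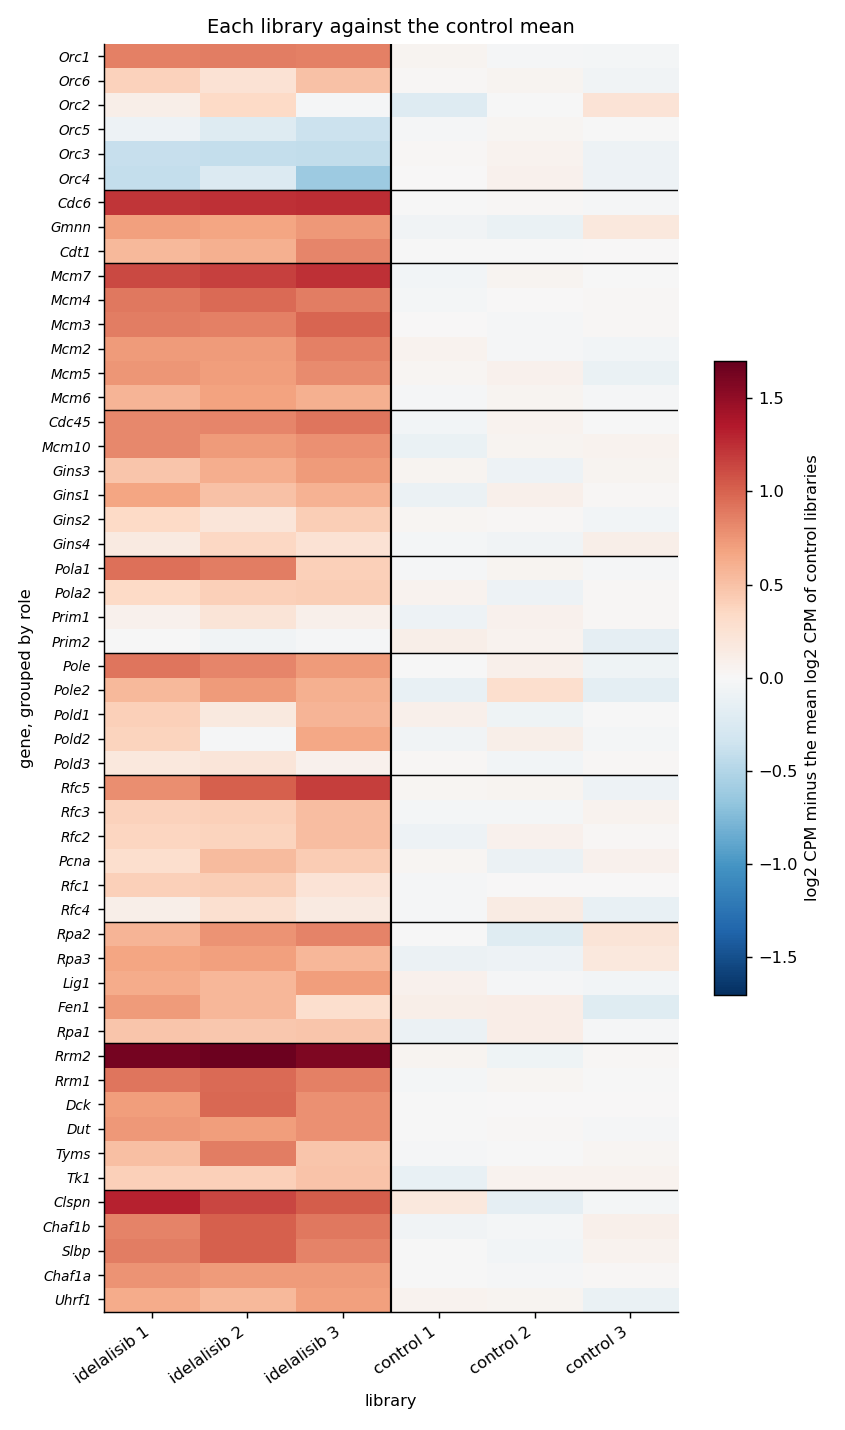
Log2 CPM of each of the 52 genes in each library minus the mean log2 CPM of the control libraries, in rows grouped by role, with the 3 idelalisib libraries left of the 3 control libraries. Red marks values above the control mean and blue below it; most rows are red across all 3 idelalisib libraries, and Orc3, Orc4 and Orc5 are blue.

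The remaining ratios between partner genes are given per library. First, the log2 ratio of Orc1 to Orc2 was -0.28, -0.51 and -0.17 in the idelalisib libraries and -0.77, -1.05 and -1.31 in the control libraries. The ratio of Cdc6 to Orc2 was 0.37, 0.16 and 0.52 in the idelalisib libraries and -0.54, -0.71 and -0.99 in the control libraries. Both ratios were higher in every idelalisib library, by 0.72 and 1.10 on average. Chaf1b over Chaf1a was -1.50, -1.29 and -1.41 in the idelalisib libraries and -1.63, -1.59 and -1.51 in the control libraries, a gap of 0.18 with no overlap. Of the 7 ratios compared, 5 had groups without overlap (exact 2-sided permutation test, p = 0.1 each, 0.14 after Benjamini-Hochberg adjustment over the 7). How often other pairs of genes separate in this way was not tested. Of all single genes tested, 27.5% had every idelalisib library above every control library and 27.2% had every one below. At 3 against 3 no ratio can pass, and the ratios do not depend on the scaling of the libraries.

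**Figure D4:**
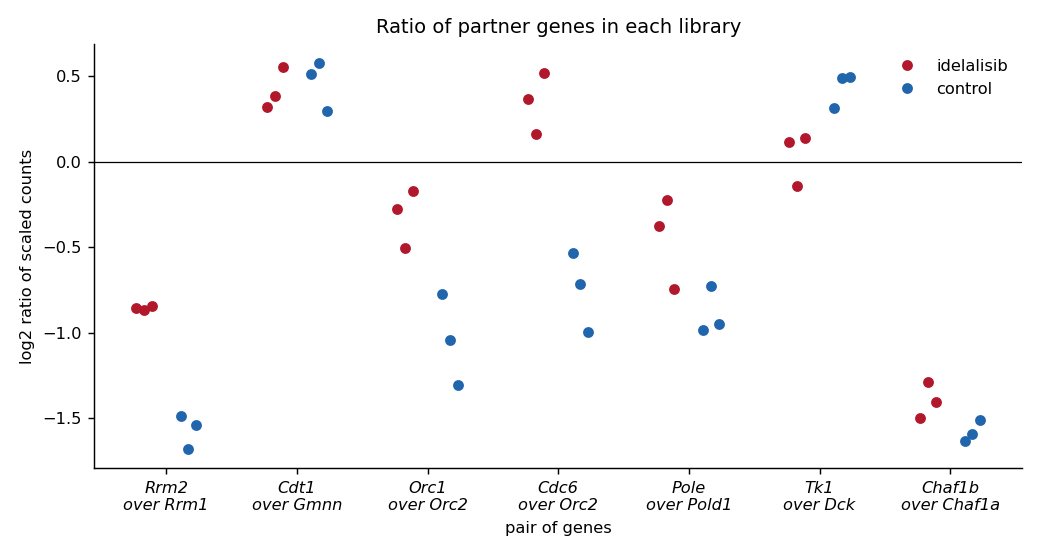
Log2 ratio of scaled counts for 7 pairs of partner genes, 1 point per library, idelalisib to the left of control within each pair. Rrm2 over Rrm1, Orc1 over Orc2 and Cdc6 over Orc2 lie higher in all idelalisib libraries, Tk1 over Dck lies lower, and Cdt1 over Gmnn overlaps between the groups.

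Further lists of DNA synthesis genes are read against the 22.2% of all genes tested that were called higher and the 22.4% called lower. Of 28 further fork and origin factors, 18 were called higher and 3 lower, with a median log2 fold change of 0.35. Their largest rises were in Pclaf, a small PCNA-binding protein (164 ± 12.3 CPM with idelalisib and 64.9 ± 5.13 CPM in control, log2 fold change 1.34), in Dscc1, a subunit of an alternative clamp loader (1.05), and in Timeless, a fork protection factor (0.95). Of 12 further chromatin assembly factors 9 were higher and 2 lower (median 0.39), led by the histone chaperones Asf1b (1.10), Nasp (0.75) and Rbbp7 (0.65). Of 15 further genes of deoxynucleotide metabolism 13 could be tested, and 8 were higher and none lower (median 0.50). Tk2 and Dguok, the mitochondrial deoxynucleoside kinases, had log2 fold changes of 0.82 and 0.80.

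Genes of the pathways that make ribonucleotide precursors had medians nearer to that of all genes, and 22.2% of all genes were called higher and 22.4% lower. Both lists hold some salvage enzymes, such as the kinase Uck2, beside enzymes of new synthesis. In the purine synthesis list 6 of 15 genes were higher and 5 lower, with a median log2 fold change of 0.14. Pfas and Gart, both enzymes of purine synthesis, rose by 0.60 and 0.58 on the log2 scale (adjusted p = 0.000216 and 0.000142, edgeR). Adssl1, an adenylosuccinate synthase, was low in every library, at 3.49, 2.55 and 3.76 CPM in the idelalisib libraries and 5.82, 5.88 and 5.79 CPM in the control libraries, and fell (log2 fold change -0.83 ± 0.21 SE, adjusted p = 0.00594, edgeR). In the pyrimidine synthesis list 2 of 8 genes were higher and none lower (median 0.14), a share of higher genes near that of all genes. The uridine-cytidine kinase Uck2 was at 243 ± 5.09 CPM with idelalisib and 200.4 ± 3.30 CPM in control (log2 fold change 0.28 ± 0.07 SE, adjusted p = 0.00624, edgeR). Cad, which carries out the first steps of the pathway, had a log2 fold change of 0.23 (edgeR adjusted p = 0.0277), and its call was lost without any 1 of the 3 control libraries or idelalisib replicate 1, with an adjusted p of up to 0.131. Cmpk1, a nucleoside monophosphate kinase, was not called (log2 fold change 0.27, edgeR adjusted p = 0.053) but passed without idelalisib replicate 1 or 3 (0.0435 and 0.0239). Leaving out idelalisib replicate 2 lowered its log2 fold change to 0.15. Leaving out control replicate 1 gave its highest adjusted p, 0.225 in edgeR. A difference between these lists and the 52 genes was not tested.

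**Figure D5:**
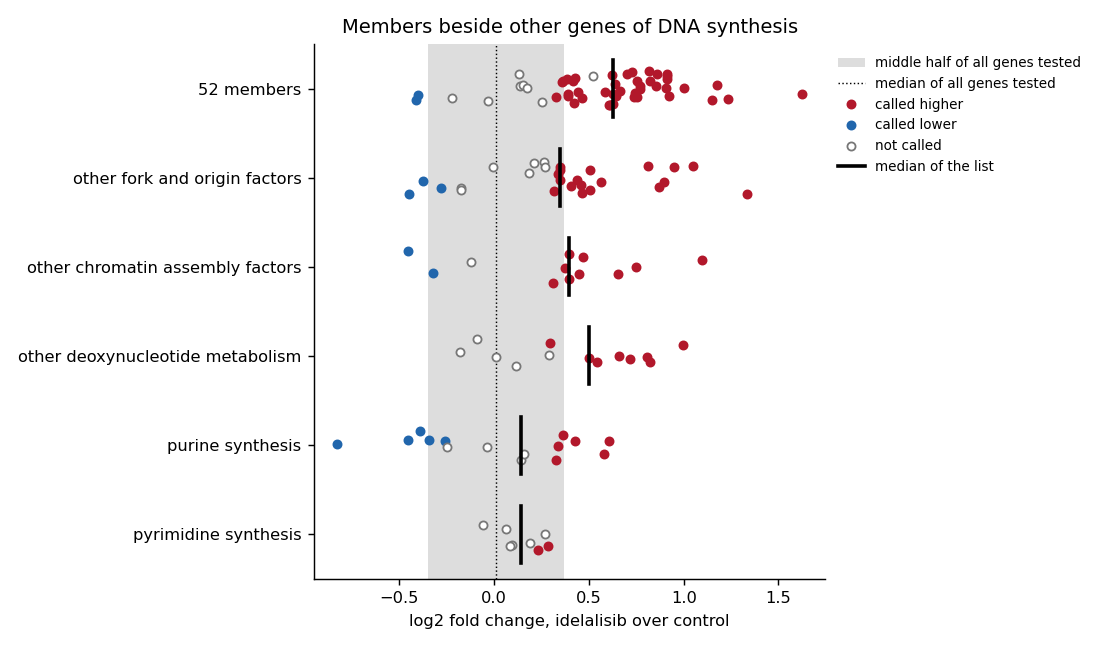
Log2 fold change, idelalisib over control, of the 52 genes and of 5 further lists of DNA synthesis genes, 1 point per gene, with the list's median as a black bar; the grey band spans the middle of all genes tested, from the first to the third quartile, and the dotted line is their median. The median of the 52 genes is 0.63, those of the further lists lie between 0.14 and 0.50, and purine synthesis has called genes on both sides.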

How the data were processed

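Poly(A) RNA was sequenced from 3 idelalisib and 3 control libraries, grouped by their titles. The authors deposited 1 table of raw read counts for each gene, whose columns were matched to libraries by name. The submitters' processing notes list build mm10 and the tools featureCounts 1.5.0-p3, HISAT2 2.0.5 and fastp. How strand and multiply mapped reads were handled is not stated in those notes or the labels. Genes were filtered with filterByExpr (minimum count 10, minimum total 15), which left 14530, scaled with TMM and compared by the robust quasi-likelihood F test of edgeR 4.0.16 (R 4.3.3), with group as the sole term. Benjamini-Hochberg adjustment covered all genes tested, and calls needed an adjusted p below 0.05. Each standard error is the absolute log2 fold change over the square root of F. CPM per kilobase uses the exon length given in the table. The 7 ratios were compared by exact permutation over libraries. Overlaps and shared 50-base words come from GENCODE M21, where 51 of the 52 genes have the coordinates of the table, and start windows from RefSeq (GRCm38.p6). Of the 53 windows, 43 had their bases after the start in a GENCODE transcript of the gene, among them the 6 printed.

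The members and lists were chosen with earlier results of these data known. All 52 members could be named. From each further list the 3 called genes averaging at least 1 CPM with the largest change were named, filled up by the smallest p, and 1 gene this rule chose is not reported here. Alternatives were a replicate block, leaving out each library, scaling by RLE, upper quartile or library size alone, looser and stricter count filters, an adjusted p below 0.01, a fit of protein-coding genes, DESeq2 1.42.0 and limma-voom (limma 3.58.1). Leaving out libraries for the ratios, and all alternatives for the named genes of the further lists, were added after seeing the data. The fit was tested on simulated data in which a small share of genes was changed, and the share of false calls exceeded its nominal level. In the real data 44.6% of genes tested were called, and the share of false calls among them was not measured.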

Additional observations from a re-analysis of the deposited data

How the results depend on the processing

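Across 16 alternatives (other scalings, tools, filters, thresholds and libraries left out), 40 to 47 of the 52 genes were called higher, against 42. Over all genes tested, 11179 to 24871 by setting, the same alternatives called 2138 to 4832 higher, against 3223. Both the 47 and the 4832 came from scaling by library size alone. The call, or lack of one, was the same in every alternative for 44 of the 52 genes, and 41 of the 44 called genes kept theirs throughout. The exceptions among called genes were Gins2, Pold2 and Orc4, and 5 uncalled genes, Gins4, Prim1, Pold3, Rfc4 and Fen1, passed in at least 1 alternative. Scaling by library size alone called 1 of the 52 genes lower instead of 2, and 2219 of all genes tested instead of 3256. It gave the 52 genes a median log2 fold change of 0.78, and upper-quartile scaling gave 0.67, against 0.63. The median of all genes was 0.16 and 0.05 under these scalings. Scaling by library size alone also called 6 pyrimidine synthesis genes higher and an adjusted p under 0.01 called 1, against 2. Of all 14530 genes tested these settings called 4832 and 2138 higher, against 3223. Leaving out 1 library gave 1 to 3 pyrimidine synthesis genes. The fits that left out 1 library called 40 to 42 of the 52 genes higher and 2 lower. Of 14965 to 15119 genes tested, these fits called 2472 to 3599 higher and 2617 to 3581 lower.

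The labels state no pairing by replicate number. Deviations of libraries with the same number correlated at 0.08, -0.13 and -0.10, and 2 of 6 libraries correlated best with their own number. These values show no shared signal by number, but cannot tell if libraries with the same number shared a mouse or a culture. With the number as a replicate block, 40 of the 52 genes were called higher and 2 lower, without Gins2 and Pold2. Of all 14530 genes tested the block fit called 2910 higher and 3051 lower. In the pyrimidine list Cad lost its call under the block (adjusted p = 0.0563, edgeR) and Cmpk1 gained one (0.0454). With 3 libraries per group, no exact test of a single ratio can fall below p = 0.1. Fen1 had the lowest counts of the 52 genes, at 32 to 66 per library, and the part of depth in its missing call was not tested.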
